A study of Rattus norvegicus with 8 samples.

Results

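The Hoxb13-low colon pieces are the 4 of 16 rat colon samples with the lowest signal for Hoxb13, a homeobox gene of the hindgut, and they were compared with the other 12 samples irrespective of diet. The members were chosen by a measured value: the log2 processed signal of the Hoxb13 probe in each dye of each array, averaged over its spots, with the 4 lowest as 1 set. Differences between the low pieces and the others are therefore a description, without a test. The position of a piece along the colon was not recorded, so it was not measured here.

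The study asked how cocoa and its fiber change gene expression in the colon. All 16 rats were female Wistar rats, 6 weeks old, with 4 in each of 4 diet groups: REF, the AIN-93M reference diet; C10, the cocoa diet; CF, a diet with cocoa fiber and little polyphenol; and I, a diet with inulin as the soluble fiber. A 5 mm piece from the middle of the colon was taken from each rat, and RNA of the whole piece was hybridized to 8 two-color arrays, so that each rat was measured on 1 array in 1 dye. Because the pieces hold the whole tissue, fewer cells of a type and less RNA per cell cannot be told apart.

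Hox genes encode transcription factors that are expressed in ordered domains along the body axis, and the genes of the 5′ end of the clusters, Hoxb13 among them, are used in the hindgut and tail end. Along the rodent colon, the distal part is known for electrogenic sodium absorption through the epithelial sodium channel (Scnn1a, Scnn1b, Scnn1g), for the colonic proton-potassium pump Atp12a and for its response to aldosterone. Colonic mucus is built on mucins whose sugar chains are extended and sulfated by glycosyltransferases and sulfotransferases, and these enzymes differ between regions of the gut.

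In the low set, the processed log2 signal of Hoxb13 was 5.72 in REF rat 4, 9.45 in CF rat 2, 9.54 in I rat 2 and 12.54 in I rat 4. In the 12 others, it ranged from 12.57 to 14.82 with a median of 13.71. The means were 9.31 ± 2.79 (SD, n = 4) and 13.67 ± 0.65 (SD, n = 12). REF rat 4 stood alone at the bottom, CF rat 2 and I rat 2 were close to each other, and a wide gap followed the third piece, whereas the fourth and the fifth (REF rat 2, 12.57) were nearly equal. After normalization the order of these 2 pieces turned, with 12.62 in I rat 4 and 12.36 in REF rat 2, so the fourth place of the set was not settled by the data. For this reason the 3 lowest pieces were also compared with the other 13, and some differences below are given for both. Where only 1 difference between low pieces and others is given, it is that of the set of 4, unless said otherwise. The probe was well above background in all 16 rats.

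**Figure D1:**
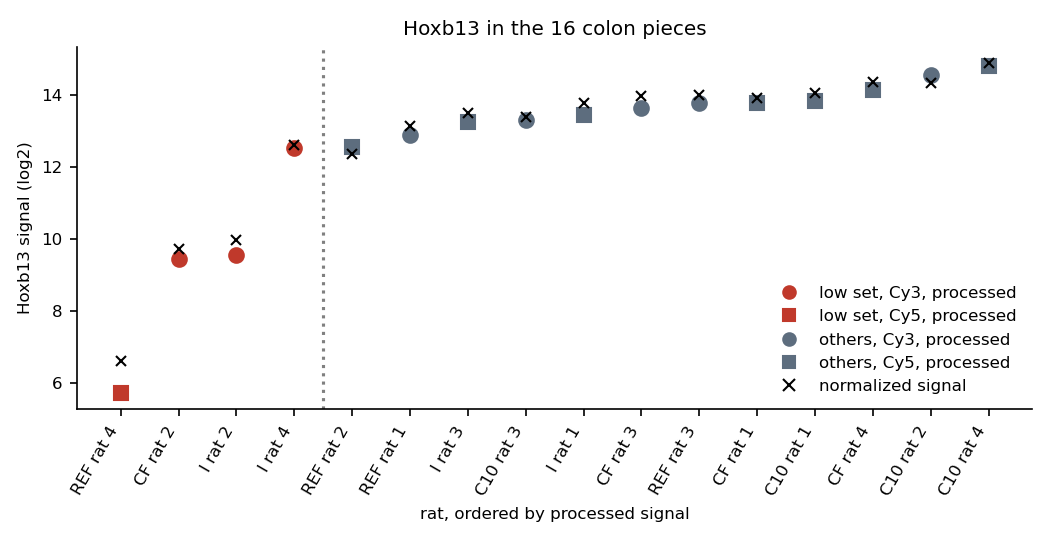
Log2 signal of the Hoxb13 probe (y axis) in each of the 16 rats, ordered by processed signal (x axis). Circles are Cy3 and squares Cy5 processed signals, red for the low set and grey for the others, crosses are normalized signals, and the dotted line parts the 4 low pieces from the 12 others. The 3 lowest pieces lie between 5.72 and 9.54, and the fourth (12.54) is next to the fifth (12.57).

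The low set held 1 REF, 1 CF and 2 I rats and 0 C10 rats. The 4 C10 rats lay between 13.32 and 14.82, and C10 rat 4 and C10 rat 2 had the highest signals of all. Of the low pieces, 3 were labeled with Cy3 and 1 with Cy5, and REF rat 4 and I rat 4 shared an array. Of all spots, 70.5 to 72.0 % were well above background in the 3 low Cy3 pieces, inside the 68.6 to 75.3 % of the other 5, and 76.1 % in the low Cy5 piece, inside the 74.3 to 83.9 % of the other 7. The part of diet, dye and array in the differences below was not tested.

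The second marker, Atp12a, the catalytic subunit of the colonic proton-potassium pump, was low in the 3 lowest pieces and not in the fourth. Its normalized log2 signal was 8.50, 9.32 and 8.75 in the 3 lowest pieces (REF rat 4, CF rat 2 and I rat 2), but 13.38 in I rat 4. The 12 others ranged from 12.08 to 15.17 with a median of 13.79. The 3 lowest pieces were thus outside the range of the other 13, with a mean difference of -4.93, whereas I rat 4 was inside the range of the 12 others (-3.83 for the set of 4). Normalized Hoxb13 itself differed by -4.09 for the set and by -4.96 for the 3 lowest. The intestinal homeobox gene Cdx2 was well above background in all 16 rats, at 13.90 to 14.17 in the low set and 12.00 to 14.07 in the others.

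Over 19905 genes, 120 had all 4 low pieces below all 12 others (0.603 %) and 152 had them above (0.764 %), together 272 (1.37 %). The mean was at least 2-fold lower in the low set for 92 genes (0.462 %) and at least 2-fold higher for 77 (0.387 %). Both conditions were met by 15 genes in each direction. With the 3 lowest pieces against 13, 100 genes were below (0.502 %) and 104 above (0.522 %), of which 32 and 42 were also separated with the set of 4. When the fifth piece was added as well, 16 genes were below and 11 above at each of the 3 boundaries, among them Chst5, Papss2, Ceacam4 and Fads3 below and Hoxa11 and Chga above. Since the pieces were chosen by a measured gene, these counts describe the set and were not tested.

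Among the genes with a symbol below the others, 2 enzymes of sugar chains, B3gnt7 and Chst5, had the largest differences. B3gnt7, a glycosyltransferase that lengthens N-acetyllactosamine chains, Chst5, a sulfotransferase that adds sulfate to N-acetylglucosamine, and Papss2, which makes the sulfate donor, had all 4 low pieces below all 12 others, and also the 3 lowest below the other 13. Their sequence just before the gene start is printed here from RefSeq (build GRCr8) because these genes were low together, beside that of Tmigd1, a gene of the opposite direction, for contrast. Each run holds the 250 bases before the start, 5′ to 3′ on the strand of the gene. Capitals mark ATAAA or its reverse complement, the letters at the end of the sought motifs CCAATAAA and GCAATAAA.
B3gnt7 (chr9:94403947-94404196, plus strand): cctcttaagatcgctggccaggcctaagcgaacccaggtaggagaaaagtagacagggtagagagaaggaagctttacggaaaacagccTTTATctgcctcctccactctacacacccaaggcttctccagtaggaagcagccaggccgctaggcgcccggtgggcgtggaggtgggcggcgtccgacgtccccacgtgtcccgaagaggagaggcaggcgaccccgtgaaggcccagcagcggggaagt
Chst5 (chr19:56790273-56790522, minus strand): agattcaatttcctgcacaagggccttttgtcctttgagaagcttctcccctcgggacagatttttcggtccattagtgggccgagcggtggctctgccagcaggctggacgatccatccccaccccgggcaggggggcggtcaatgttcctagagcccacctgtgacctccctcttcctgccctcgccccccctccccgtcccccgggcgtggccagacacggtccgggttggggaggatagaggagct
Papss2 (chr1:239867463-239867712, plus strand): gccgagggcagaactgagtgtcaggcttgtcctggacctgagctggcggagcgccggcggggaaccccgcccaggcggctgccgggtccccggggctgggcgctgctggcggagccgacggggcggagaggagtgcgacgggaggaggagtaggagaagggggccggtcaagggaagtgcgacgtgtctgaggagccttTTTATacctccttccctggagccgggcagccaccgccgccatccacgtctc
Tmigd1 (chr10:62236965-62237214, plus strand): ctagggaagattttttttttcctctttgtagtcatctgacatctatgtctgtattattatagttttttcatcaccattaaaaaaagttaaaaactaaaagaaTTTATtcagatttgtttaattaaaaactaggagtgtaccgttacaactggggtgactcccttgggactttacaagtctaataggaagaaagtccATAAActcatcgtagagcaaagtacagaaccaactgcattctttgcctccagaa
Promoters of 300 bases (250 before to 50 after the start) were found for 19 of the 24 genes with a symbol that are named below for the largest differences. CCAATAAA and GCAATAAA, searched on both strands, were met in 0 of these 19, and 1 or the other in 669 of all 33469 promoters (2 %). The shorter ATAAA was in 7 of the 19 (36.8 %) and in 14239 of all promoters (42.5 %). It was chosen after the longer motifs had given no match. In the printed runs it begins 161 bases before the start of B3gnt7, 51 before that of Papss2, and 148 and 54 before that of Tmigd1. Chst5 has none.

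B3gnt7 had a normalized log2 signal of 11.33, 11.99 and 12.15 in the 3 lowest pieces and 14.29 in I rat 4, compared with 14.35 to 16.06 in the 12 others (median 15.34). The difference was -2.82 (-3.37 for the 3 lowest). I rat 4 stood just under REF rat 1, the lowest of the others, and far above the 3 lowest pieces. Chst5 ran from 6.43 through 7.36 and 7.64 to 8.08 in the low set, in the order of Hoxb13, and from 8.45 to 10.89 in the others (median 9.83). Its difference was -2.44 (-2.54). Its 2 lowest values among the others were those of REF rat 2 (8.45) and REF rat 1 (8.85), the pieces next in Hoxb13. Papss2 was 8.81, 8.75, 8.97 and 9.69 in the low set and 9.69 to 11.09 in the others, a difference of -1.40 (-1.56), and I rat 4 was level with REF rat 2 at this precision.

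The other 16 tested genes of mucin glycan synthesis did not separate. Of 18 tested in a list of 23, 9 were lower and 9 higher, with a median difference of 0.03 (all genes tested, 0.00). Gcnt3 (1.11), a core-branching enzyme, and Fut9 (1.07), a fucosyltransferase, were at least 2-fold higher on average, with overlapping ranges. Both were named after their values were seen. B3gnt8, a relative of B3gnt7, was 7.15 to 7.38 in the low set and 7.29 to 8.28 in the others. The goblet cell list did not move as a whole, with 6 of 11 genes lower and 5 higher (median -0.05). In it, Tff1, a trefoil peptide, was higher (1.25), while Retnlb, a secreted goblet cell protein, was 10.88 to 12.26 in the 3 lowest pieces but 15.87 in I rat 4, with 9.86 to 16.38 in the others.

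The remaining lower genes had several roles. Tmem150c, a membrane protein linked to mechanosensitive currents, was 8.19 to 8.78 in the low set and 8.99 to 10.51 in the others (-1.44). Ceacam4, a cell adhesion molecule, was 7.33 to 7.82 and 7.93 to 9.46 (-1.33) and was separated at the boundary of 3 pieces as well. Dio1, a thyroid hormone deiodinase, differed by -1.17 and Foxq1, a forkhead transcription factor, by -1.06. Armh4, a membrane protein, was 6.97 to 7.02 in the low set and 7.15 to 9.01 in the others (-1.09), and A2m, a proteinase inhibitor, differed by -0.90. Of the genes without a symbol, the transcript NM_022388 had the largest difference (-3.52), with 8.74, 11.64, 11.11 and 12.33 in the low set and 12.37 to 16.18 in the others. ENSRNOT00000017078 was 12.19 to 12.95 in the low set and 13.26 to 15.11 in the others (-1.69).

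Cxcl13, the chemokine that draws B cells into follicles, Pde6h, a phosphodiesterase subunit, and Bach2, a transcription factor of lymphocytes, also had all 4 low pieces below the others. Cxcl13 ran from 6.98 in REF rat 4 to 7.49 in I rat 2, with 7.17 in I rat 4, and was 7.52 to 11.50 in the others, with a median of 9.57 (-2.27). The others were spread widely: REF rat 2 (7.52), REF rat 1 (7.57) and C10 rat 2 (7.65) lay next to the low pieces, while CF rat 3 reached 11.50. Pde6h differed by -1.56, with CF rat 4, C10 rat 2 and C10 rat 4 at 6.49 to 6.53, just above the 6.35 to 6.48 of the low set, and it was well above background in 3 of the 4 low pieces. Bach2 differed by -1.23. None of these 3 was separated with the 3 lowest pieces, and over the 12 others their correlations with Hoxb13 were 0.21, -0.02 and 0.06. Beside them, all 10 tested B cell genes were lower (median -0.68, -1.03 within diets, with Cxcl13 itself the 1 below all others) and 10 of 11 T cell genes were lower (median -0.67, 0 separated). The mean level of the B cell list was 6.68 to 6.79 in the low set and 6.62 to 9.17 in the others, and that of the T cell list 7.34 to 7.41, inside the range of the others, which reached 9.10. The part of lymphoid tissue in these 3 genes was not tested.

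**Figure D2:**
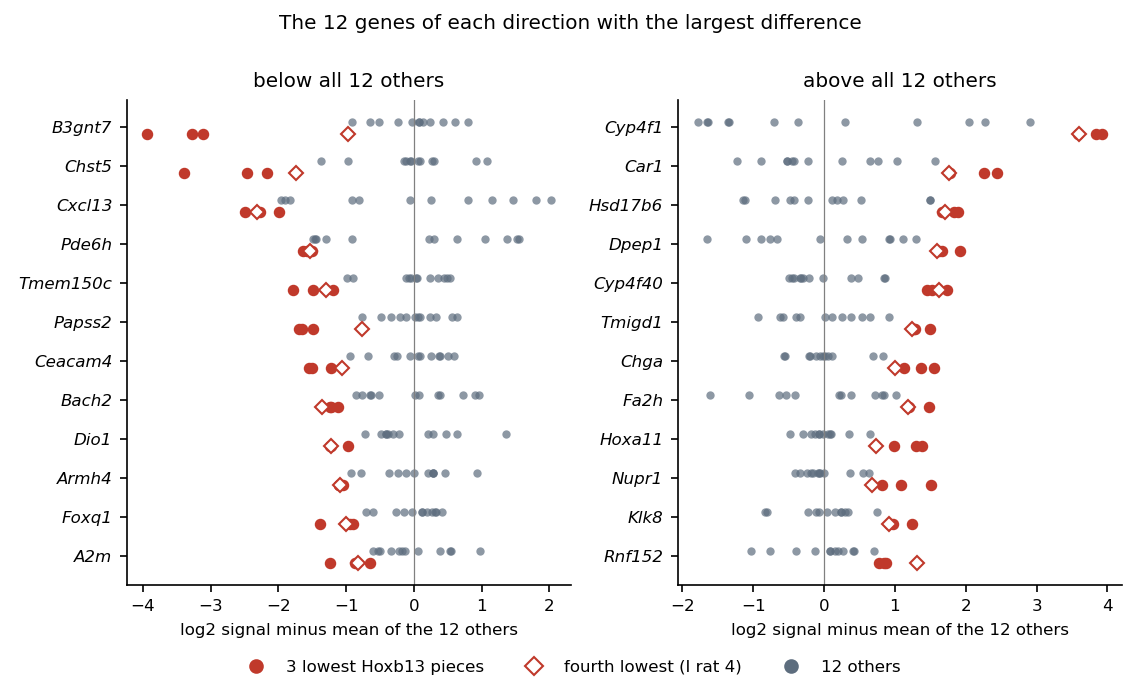
Normalized log2 signal minus the mean of the 12 others (x axis) for the 12 genes with a symbol and the largest difference in each direction (y axis), among genes in which all 4 low pieces lie on 1 side of all 12 others. Filled red points are the 3 lowest pieces, open diamonds I rat 4 and grey points the 12 others. For B3gnt7 and Papss2 the diamond lies beside the grey points and away from the other low pieces, whereas for Cyp4f1 and Cxcl13 the 4 low pieces lie together.

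Among the genes above the others, Cyp4f1 had the largest difference. It encodes a cytochrome P450 that hydroxylates fatty acids and leukotrienes. Its log2 signal was 12.24, 12.58, 12.50 and 12.25 in the low set, and 6.88 to 11.56 in the others with a median of 8.13, a difference of 3.73. The 4 low pieces lay close together, I rat 4 among them. REF rat 1 (11.56), REF rat 2 (10.93) and C10 rat 3 (10.71) came next. Cyp4f40 of the same family was 8.25 to 8.52 in the low set and 6.30 to 7.65 in the others (1.58). The probes of members of the same family may share RNA, so the 2 may not be independent. This was not tested.

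Car1, a carbonic anhydrase of colon epithelium, was 15.33, 15.81, 15.99 and 15.32 in the low set and 12.33 to 15.12 in the others (median 13.23), a difference of 2.06 (2.02). Dpep1, a membrane dipeptidase, was 14.40 to 14.71 in the low set and 11.14 to 14.09 in the others (1.70). Tmigd1, an adhesion protein of epithelial cells, was 12.62 to 12.88 and 10.45 to 12.30 (1.32). All 3 were also separated at the boundary of 3 pieces. Hsd17b6, a steroid dehydrogenase, differed by 1.77, Fa2h, a fatty acid hydroxylase, by 1.26 and Rnf152, a ubiquitin ligase, by 0.95, each separated with the set of 4 and not with the 3 lowest. Nupr1, a stress-induced nuclear protein (1.02), and Klk8, a kallikrein protease (1.01), were separated at both boundaries. Without a symbol, ENSRNOT00000006888 differed by 1.56 (0.88 within diets) and ENSRNOT00000061896 by 1.26.

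The list of bicarbonate and chloride transport, to which Car1 belongs, leaned upward. Of 18 tested genes in a list of 19, 14 were higher and 4 lower, with a median of 0.41 (0.23 for the 3 lowest). Over all 19905 genes tested, 9855 were higher and 1.37 % were separated. Separated were Car1 and the bicarbonate cotransporter Slc4a4 (9.75 to 10.12 in the low set, 8.45 to 9.68 in the others) above the others, and the chloride channel Ano1 (12.04 to 12.18, 12.24 to 13.10) below. Car2, another carbonic anhydrase, was 14.21 to 14.70 in the low set and 10.63 to 14.58 in the others (1.32). Slc4a4 and Ano1 were singled out after their values were seen.

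Of the genes of distal colon salt transport, 13 in a list of 15 were matched to a probe by symbol and tested. None of these was separated with the set of 4, which is near the 1.37 % over all genes tested. Fxyd4 and Nedd4l had no probe matched by symbol, so the counts of this list leave them out. Transcripts without a symbol, NM_022388 among them, were not assigned to any list. Whether any of them is a salt transport gene was not checked. Of the 13, 9 were lower and 4 higher, with a median of -0.26, but of -0.01 when low pieces were compared with the others within each diet. The 3 subunits of the epithelial sodium channel differed by -0.27 (Scnn1a), -0.26 (Scnn1b) and -0.33 (Scnn1g), and within diets by -0.22, -0.01 and -0.03. Scnn1g was 6.55 to 7.13 in the low set and 6.44 to 7.59 in 11 of the others, with 10.65 in C10 rat 4, the piece with the highest Hoxb13. Over the 12 others, Atp12a (0.773), Scnn1g (0.647), Scnn1b (0.646) and Sgk1 (0.506) had a correlation of 0.5 or more with Hoxb13. The rest of the list ranged from -0.255 (Kcnma1) to 0.335 (Scnn1a). The aldosterone receptor Nr3c2 (-0.04), the enzyme that guards it, Hsd11b2 (0.08), and the channel-activating protease Prss8 (-0.05) were close to 0. Sgk1 (-0.58, -0.37 within diets) and Tsc22d3 (-0.53), both targets of steroid receptors, were lower on average with overlapping ranges. The sodium pump subunit Atp1b1 (-0.26, -0.16 within diets) and the exchanger Slc9a2 (0.11) had overlapping ranges too, as did all 13 genes with the set of 4. The potassium channel Kcnma1 (0.39) was above the other 13 with the 3 lowest pieces and overlapped with the set of 4.

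Between the low set and the others, the posterior Hox genes did not move together. Hoxa11 was in the opposite direction to Hoxb13, at 11.27, 11.18, 10.87 and 10.62 in the low set, in the reverse order of Hoxb13, and 9.40 to 10.54 in the others (median 9.85), a difference of 1.10 (1.16) with no overlap at either boundary. Its highest value among the others was that of REF rat 2 (10.54), followed by REF rat 1 (10.24). Hoxd13 was 6.25, 7.04, 7.25 and 7.07 in the low set and 6.93 to 9.62 in the others (-0.89). Hoxd10 was 7.66 to 8.22 in the low set and 8.18 to 10.75 in the others (-0.99), so that the ranges of both genes overlapped. Hoxd9 (0.02) and Hoxb9 (-0.17) differed little, and Hoxd12 was not well above background in any low piece and in 6 of the 12 others. For Hoxd12 no fold is given. Over the 12 others, Hoxd10 (0.779), Hoxd13 (0.667), Hoxd9 (0.652) and the dim Hoxd12 (0.615) had positive correlations with Hoxb13. Those of Hoxb9 (-0.0652) and Hoxa11 (-0.683) were negative. Of 7 tested genes in a list of 16, 5 were lower and 2 higher. Among anterior Hox genes, 4 of 6 tested were higher and 2 lower, with Hoxa7 (0.72) and Hoxa2 (0.38) having the largest differences. Hoxa2 was above the other 13 with the 3 lowest pieces and overlapped with the set of 4.

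Hormone-producing enteroendocrine cells are scattered through the epithelium. Of 15 tested genes in a list of 18, 14 were higher in the low set and 1 lower, with a median of 0.28 (0.26). The mean level of the list was 9.60 to 9.78 in the low pieces and 8.90 to 9.55 in the others, without overlap. Chga, a protein of secretory granules, was 10.57, 10.75, 10.32 and 10.19 in the low set and 8.63 to 10.03 in the others (1.26), separated at both boundaries. Tph1, the enzyme that starts serotonin synthesis, was 10.10 to 10.92 and 8.54 to 10.42 (1.25). Slc18a1, a vesicle transporter for monoamines, differed by 1.14, Chgb by 0.90 and the hormones Gcg by 0.80, Sst by 0.74 and Pyy by 0.23, all with overlapping ranges. Neurod1 (0.05) and Neurog3 (0.04), transcription factors of the lineage, were close to 0. Of these, all but Chga and Tph1 were named after their values were seen.

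The small intestine-type absorption genes were mixed. Of 20 tested genes in a list of 24, 10 were lower and 10 higher (median 0.01). No gene was separated with the set of 4 (all genes tested, 1.37 %). Fabp1 and Fabp2, fatty acid binding proteins, were higher on average (2.02 and 1.28). For Fabp1 the low set was 10.41 to 10.94, and REF rat 1 was also at 10.97 while the other 11 were at 9.21 or below. Slc15a1, the peptide transporter (-1.28), Fabp6, the bile acid binding protein (-1.25), and Mme, a membrane peptidase (-1.03), were lower on average, with ranges that overlapped, and Slc15a1, Fabp6 and Mme were named after their values were seen.

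**Figure D3:**
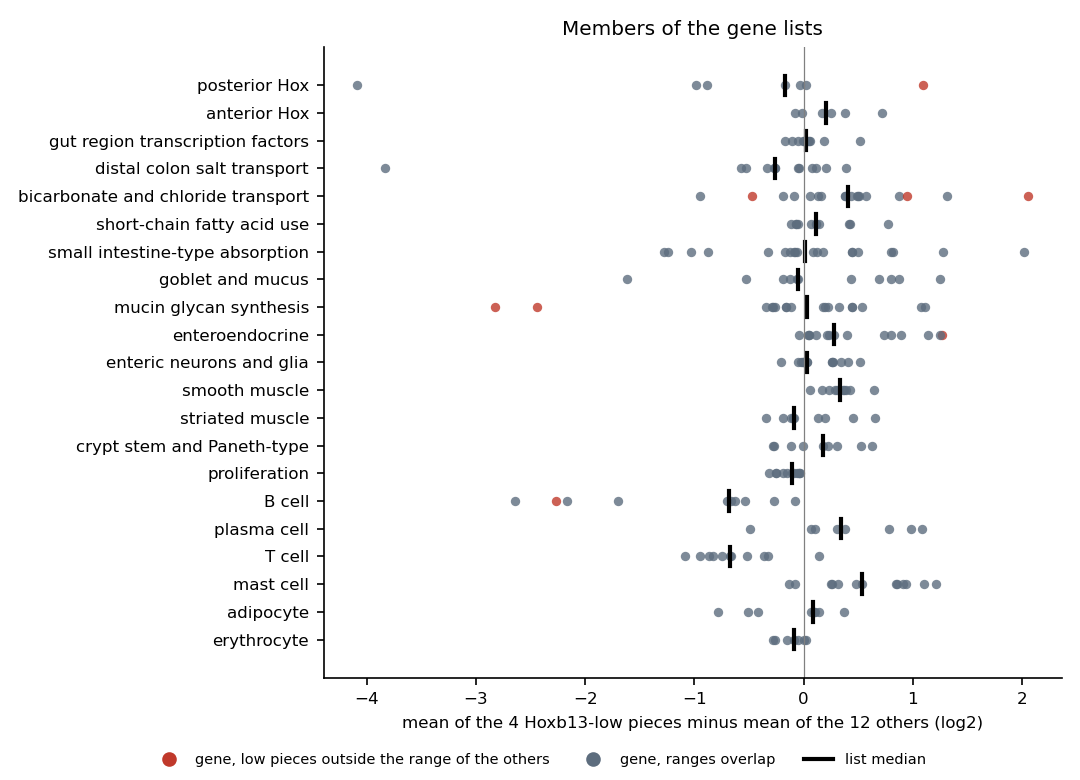
Difference between the mean of the 4 Hoxb13-low pieces and that of the 12 others in log2 units (x axis) for each tested member of 21 gene lists (y axis). Red points are genes whose low pieces lie outside the range of the others, grey points genes with overlapping ranges, and black bars list medians. The B cell (-0.68) and T cell (-0.67) medians are lowest and that of the mast cell list (0.53) highest.

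Several lists of other cell types had most genes on 1 side, with mean levels that overlapped. Smooth muscle genes were higher in 10 of 10 (median 0.34), while the mean level of the list was 13.80 to 13.92 in the low set and 11.61 to 14.09 in the others (median 13.75). The lowest value came from C10 rat 1, with Cnn1 at 8.88. Mast cell genes were higher in 11 of 13 (median 0.53, 0 separated, but 0.16 within diets), with mean levels of 8.95 to 9.15 and 7.48 to 9.11. Plasma cell genes were higher in 7 of 8 (median 0.34), with 8.87 to 9.11 and 7.59 to 9.52. Proliferation genes were lower in 11 of 11, by a median of -0.11. Without normalization between arrays their median was 0.08, where that of all genes had shifted to 0.105. Of these lists, none had a mean level without overlap, and their part in the single-gene differences was not tested. In several other lists no gene was separated with the set of 4, near the 1.37 % over all genes tested. Their medians were 0.11 for short-chain fatty acid use, 0.03 for enteric neurons and glia and -0.09 for striated muscle. They were 0.17 for crypt stem and Paneth-type genes, 0.02 for gut region transcription factors, 0.08 for adipocyte genes and -0.09 for erythrocyte genes.

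Whether a gene followed Hoxb13 in finer steps was described over the 12 others. Over all genes tested, 5 % had a Pearson correlation of 0.5 or more with Hoxb13 over these 12 pieces, and 5.13 % of -0.5 or less. Of the 120 genes below, 51 (42.5 %) had 0.5 or more, and of the 152 above, 39 (25.7 %) had -0.5 or less. Among the 12 named genes below, it was 8, and among the 12 named genes above, all 12. All these genes were chosen by a split on Hoxb13 itself, so their larger shares are no independent support. Pieces share arrays in pairs, dyes and diets, so these are descriptions without a p-value. Among the 12, normalized Hoxb13 was highest in C10 rat 4 (14.88) and lowest in REF rat 2 (12.36) and REF rat 1 (13.14). Diet was not removed from any correlation over these pieces, so following Hoxb13 and differing between diets cannot be told apart. Of 10158 genes with a symbol and above background in every rat, those most like Hoxb13 over the 12 were Chst5 (0.92), P2ry6, a nucleotide receptor (0.91), B3gnt8 (0.90), Padi3, a protein deiminase (0.89), and Fads3, a desaturase relative (0.89). Those most opposite were Npw, a neuropeptide (-0.95), Mcemp1, a membrane protein of mast cells (-0.94), Stc1, a secreted glycoprotein (-0.92), Pzp, a proteinase inhibitor (-0.90), and F2, prothrombin (-0.90). Fads3 was also below all 12 others in the low set (9.93 to 10.40, 10.44 to 11.51). Pzp was 10.67, 10.12, 9.07 and 9.44 in the low set and 6.09 to 10.26 in the others, with REF rat 2 at 10.26.

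**Figure D4:**
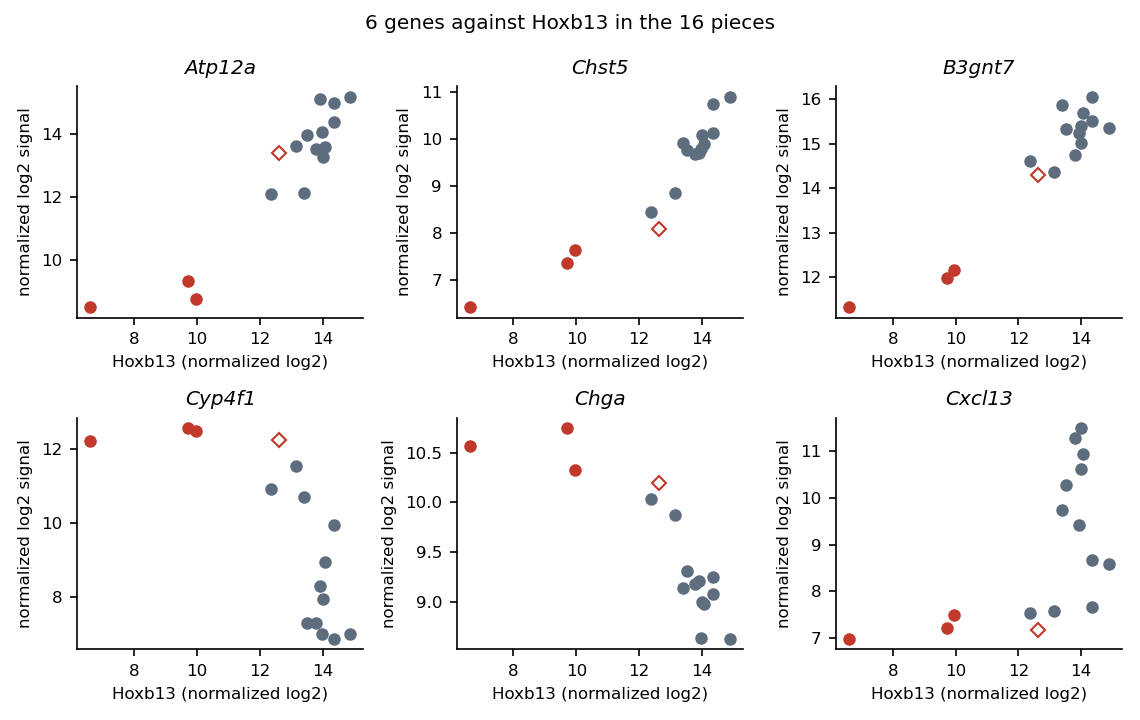
Normalized log2 signal of 6 genes (y axes) against that of Hoxb13 (x axes) in the 16 pieces. Red circles are the 3 lowest pieces, the open diamond is I rat 4 and grey points are the 12 others. Chst5 follows Hoxb13 over the whole range, Atp12a and B3gnt7 have their gap between the 3 lowest and I rat 4, Cyp4f1 and Chga are highest in the low set, and Cxcl13 varies from 7.52 to 11.50 among the 12 others.

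The diets were compared by limma over all 19905 genes, a test in which the low set played no part. In C10 against REF, 36 genes were lower (0.181 %) and 3 higher (0.0151 %) at an adjusted p below 0.05 and 2-fold, together 39 (0.196 %). On log-ratios within arrays limma called 0 in C10, with a smallest adjusted p of 0.056 and 2633 genes at an unadjusted p below 0.05, and rank product called 136. For the CF and I diets limma called 0 genes, with smallest adjusted p-values of 0.615 and 0.484, and 1268 and 1136 genes at an unadjusted p below 0.05. Rank product, a test on ranks, called 49 and 32 there. It treated all pairs of a diet rat and a REF rat as independent, although pairs share rats. Its counts can therefore be too high. By limma over all 16 rats, none of the 24 named genes with the largest differences was called in any diet, and their adjusted p in C10 ranged from 0.0905 to 0.774. Rank product called B3gnt7, Chst5, Cxcl13, Cyp4f1 and Hsd17b6 in C10, and the last 3 of these in CF. Under other processing, limma called Armh4 in C10 with processed signals (1.80, adjusted p 0.0489) and, without normalization between arrays, Armh4 (1.17, adjusted p 0.018) and Foxq1 (1.03, adjusted p 0.032). The low set took 1 of the 4 REF rats and 0 of the 4 C10 rats, so the comparisons share rats.

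Hoxb13 differed by 2.77 between C10 and REF, by 1.73 in CF and by 1.08 in I, given as a description since the set was chosen on this gene. Chst5 differed by 2.03 in C10 (limma adjusted p 0.150), with 1.34 without the 4 low pieces, and Atp12a by 2.28 (adjusted p 0.458), with 0.82. Cyp4f1 differed by -1.95 in C10 (adjusted p 0.405), with -1.12 without the low pieces. B3gnt7 differed by 2.04 (adjusted p 0.224), with 1.10 without the 4 low pieces (adjusted p 0.109) and 1.16 without the 3 lowest, where the adjusted p was 0.0449. These genes were chosen for differing in a set that holds a REF rat and no C10 rat, so smaller values without the set follow from the choice. Among the genes most opposite to Hoxb13, Mcemp1 was called in C10 (-1.08, limma adjusted p 0.0444), with -0.94 without the 4 low pieces (adjusted p 0.177). The number of genes called in C10 changed from 39 to 25 with a term for the low set, to 26 without the 3 lowest pieces and to 4 without the 4 low pieces, a fit that holds 3 REF rats, 3 CF rats and 2 I rats beside 4 C10 rats. The 4 were Hdc, the histidine decarboxylase of mast cells (-1.09), Mcpt8l2, a mast cell protease (-1.37), Me1, malic enzyme (-1.22), and ENSRNOT00000068774 (-1.13). The 3 genes higher in C10 over all 16 rats were Angptl4 (1.32, limma adjusted p 0.0461), a lipase inhibitor, Mme (1.41, adjusted p 0.0339) and XM_001080040 (1.13, adjusted p 0.0184), and none of these was called without the 4 low pieces, where they differed by 1.20 (adjusted p 0.232), 1.23 (0.109) and 0.96 (0.0377, under 2-fold). Mme was still called with a term for the low set (1.18, adjusted p 0.0431) and without the 3 lowest pieces (1.27, adjusted p 0.0491). Of the 13 mast cell genes, 8 were called lower in C10 by limma over all 16 rats (all genes tested, 0.181 %). Without the 4 low pieces only Hdc of these was called, and on log-ratios within arrays none was.

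**Figure D5:**
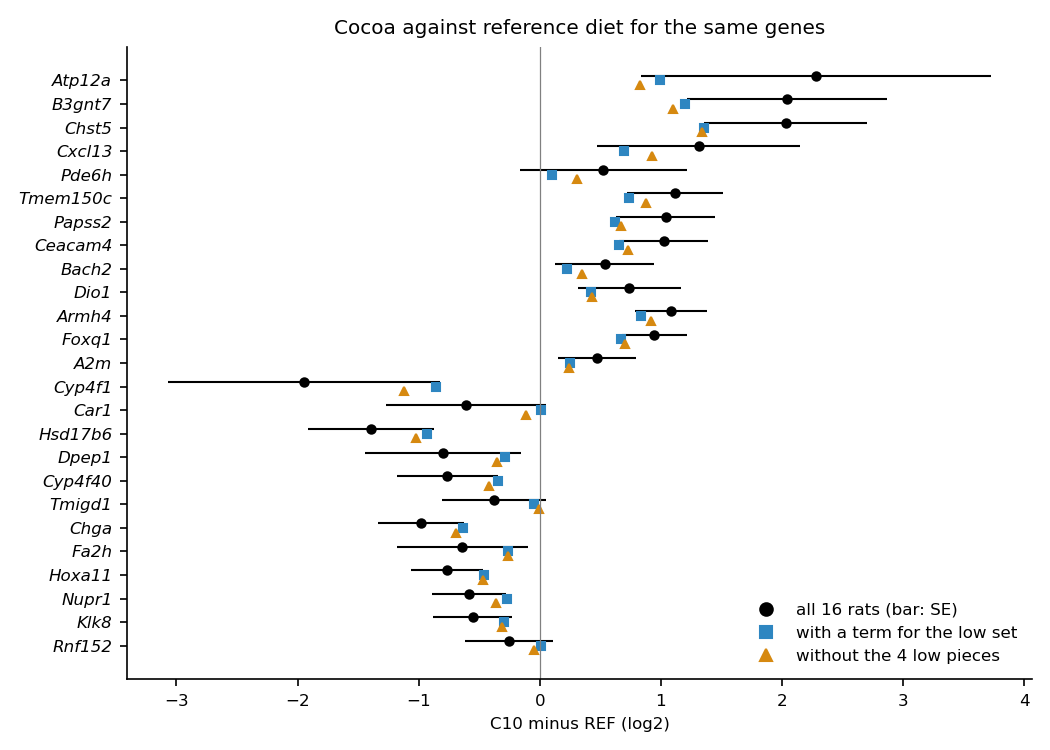
Log2 difference between the C10 and REF groups (x axis) for Atp12a and the 24 named genes (y axis), from limma over all 16 rats (black, bar: SE), with a term for the low set (blue) and without the 4 low pieces (orange). For Cyp4f1 the 3 values are -1.95, -0.86 and -1.12.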

How the data were processed

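Colon RNA of 16 female rats was measured on 8 two-color Agilent rat arrays, all on 1 slide. The authors deposited the scanner output of Feature Extraction 10.7.3.1, which holds spot intensities that were not yet normalized between arrays, together with the background-subtracted and dye-normalized processed signal. A table of the whole series with 8 columns that name no rat was not used. The low set was defined on log2 of the deposited processed signal. For all other values, median intensities were corrected with normexp (offset 50) in limma 3.58.1 (R 4.3.3), normalized within arrays by loess (spans 0.4 and 0.3) and between arrays by Aquantile, and split into 1 log2 signal per rat. Control spots were left out. Probes well above background in at least 4 of 16 rats were kept, and the brightest probe of a gene was used, which left 19905 genes, 11923 of them with a symbol. The number of arrays limits the precision. Nothing in the labels says more than that each rat is 1 sample, and each shares its array with a rat of another diet.

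Low pieces were compared with the others by counts, means and ranges, with no test. Diets were compared in limma with dye as a term and array as a random block (correlation 0.420), with Benjamini-Hochberg adjustment over all genes. The scripts were tested on simulated data. The members and the gene lists were chosen with earlier results of these data known. Genes were named when they belonged to the posterior Hox or salt transport lists, when they were among the 12 with a symbol and the largest difference in each direction with no overlap, when they were among the 5 most like or most opposite to Hoxb13 over the 12 others, or when they had 1 of the 2 largest differences of another list. Genes that met none of these are said to be named afterwards, apart from those named because limma called them in a diet comparison. Alternatives were another set boundary, other signals, normalization and filters, centering within dyes or diets, leaving out rats, and rank product. Promoter sequences came from RefSeq (GRCr8), and genes without a matched probe were not analysed here. Some genes of these lists are not reported here.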

Additional observations from a re-analysis of the deposited data

Results flagged for a closer look

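In 172 diet groups of 4 rats over 43 named genes, 14 had 1 rat far from the other 3 by Dixon's test of the gap over the range of the group. Chance gives about 1 in 20 such groups. CF rat 2, the 1 low piece of the CF group, was the rat set apart for Hoxb13 (9.719, the other 3 from 13.92 to 14.36), B3gnt7 (11.99), Chst5 (7.359), Foxq1 (7.471), Hoxa11 (11.18), Car1 (15.81) and Cyp4f40 (8.523). These genes were named for differing in the low set, so this follows from the choice. I rat 2 was set apart for Atp12a (8.749, the other 3 from 13.38 to 13.96), which places I rat 4 with the rats outside the low set. REF rat 4 was set apart for Tsc22d3 (10.81, the other 3 from 11.46 to 11.58).

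The other 5 did not involve low pieces. C10 rat 4, with the highest Hoxb13, was set apart for Scnn1g (10.65, the other 3 from 6.64 to 7.12) and Dpep1 (11.14, from 13.33 to 13.73). Cxcl13 was high in REF rat 3 (10.63, the other 3 from 6.98 to 7.57). Hsd11b2 was high in C10 rat 2 (14.23) and low in I rat 1 (13.31).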

How the results depend on the processing

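The set itself depended on the scale: normalized signals, or Hoxb13 centered within each dye, put REF rat 2 in place of I rat 4, so 3 of 4 pieces were shared. With the set by normalized signals, an alternative chosen after seeing the data, 63 genes were below the others (120 with the reported set). Since the sets swap I rat 4 and REF rat 2, no gene can be separated by both. The 63 therefore hold none of the 120. Processed signals gave 35 genes above, 464 at least 2-fold lower and 214 higher, with 31.6 % of the 2-fold genes higher against 45.6 %. Without an offset in normexp there were 166 lower and 138 higher. Without normalization between arrays there were 27 below and 127 at least 2-fold higher, the median of all genes shifted to 0.105, and 64.5 % of the 2-fold genes were higher (52.2 % after centering). Centering within dyes gave 62 below and 79 above. Differences within diets gave 222 below, 355 above and 173 at least 2-fold lower, with 29.7 % of 2-fold genes higher. Of the separated genes, 55.9 % were above, against 24.6 % with processed signals and 79.2 % without normalization between arrays. Leaving out 1 low piece, which leaves fewer pieces to separate, gave 188 to 313 below, 214 to 377 above, 83 to 103 lower and 70 to 84 higher, lowest without I rat 4 and highest without I rat 2 for the first pair. Of the differences of named genes, 1296 values moved by less than the spread and 32 by more. Differences of genes with overlapping ranges crossed 0 under at least 1 alternative for Hoxd9, Hoxd12, Nr3c2, Hsd11b2, Prss8, Slc9a2, Rrm2, Scd and Hbb-bs, as did the medians of the lists for gut region factors, small intestine-type, goblet, mucin glycan, striated muscle, crypt, proliferation, adipocyte and erythrocyte genes.

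Genes called in C10 (39) fell to 4 without the 4 low pieces, 25 with a term for them, 21 without the dye term and 0 with log-ratios within arrays, and were 67 without an offset, 92 with processed signals and 136 by rank product, which called 49 in CF and 32 in I. The rank product counts treat pairs that share rats as independent. Leaving out 1 rat gave 17 (without REF rat 2) to 96 (without REF rat 3), with 20 without REF rat 1 and 23 without REF rat 4, and 0 to 0 in CF. In I it gave 0 to 1, the 1 being probe A_64_P151259 without C10 rat 4. These fits reused the block correlation of all 16 rats. The causes were not tested. Other Hoxb13 probes were not run, since 1 probe was matched. Rats were not paired by replicate number, because the labels give no replicate numbers that groups share. Arrays do pair rats of different diets, which the array block and the log-ratios within arrays take up.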
